A study of Daphnia sinensis with 8 samples.

Results

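In the transcriptome of *D. sinensis*, 198 of 11114 listed unigenes formed a group that was high in sexual females (SF) and males (M) and low in juvenile females (JF) and parthenogenetic females (PF). These members were chosen by their measured levels in all 8 libraries. The level was the count of a unigene per 1000000 counts of its library (CPM). The largest log2 gap between neighbouring stage means had to lie between SF and M above and JF and PF below, and the means of SF and M each had to reach 5 CPM. The lowest SF or M library had to be at least 1.5 times the highest JF or PF library, a value called the selection ratio below. The 200 unigenes with the highest ratios were kept. Of these, 2 carry a known gene name and were then left out.

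RNA of whole animals was sequenced in pools, with 2 libraries per stage. JF were newborn females of under 12 h from singly kept mothers, with about 500 animals per sample. PF (about 50 animals, with their first eggs) and SF (about 50 animals, with resting eggs) were taken at an age of 2 to 3 weeks from crowded beakers with several mothers. M (about 60 animals) carry the same age on their labels, but were cultured apart from the females after they had been collected as juveniles. No allele, strain difference or agent sets the stages apart, and all animals descend from females of the same lake that were fed the same green alga. Age and culture cannot be told apart from stage wherever JF or M are compared with another stage.

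Water fleas of the genus *Daphnia* reproduce by parthenogenesis in good conditions, when mothers produce daughters from unfertilised eggs. Crowding, scarce food or a changing day length can lead them to produce males and sexual females. A sexual female forms eggs that need fertilisation, and its carapace is remodelled into the ephippium, a protective case in which the resting eggs are shed with a moult. Males and sexual females are thus the sexual morphs of the same life cycle.

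The deposited table gives cluster numbers and no names, and no reference gene shared an ID with it, so a role can be given to none of the 198 members. The study's list of male-biased candidates has 25 uncharacterized genes and 11 known ones. Of the 17 uncharacterized ones among the listed unigenes, 6 were members, with an uncharacterized or hypothetical protein as best match. The candidates for that list were first picked on these same libraries and then kept by a separate qPCR assay, whose values are not used here, so membership of the list is not independent of the levels described below. The known genes chitinase 8, an enzyme that degrades chitin (Cluster-5789.7417), and trypsin alpha-like, a digestive type of serine protease (Cluster-5789.11655), were the 2 left out, with selection ratios of 4.87 and 2.84.

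The libraries held between 17172891 and 27160267 counts. The male libraries lay close together, with a chi-square per degree of freedom of 1.89 between their rounded counts, where 1 is sampling alone. It was 173 in SF, 97.3 in PF and 65.2 in JF. *Doublesex2*, a gene of the *doublesex* family on the study's list of male-biased candidates, was at 214 and 220.01 CPM in M and at most 6.35 CPM in the female libraries. Nothing in the labels says whether the libraries of a stage came from separate cultures, so their spread may be partly technical. In particular the male libraries, labelled as replicates, differed by little more than sampling, and whether they came from 1 pool of males or from separate pools was not tested.

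The steps of the selection show how narrow the group is. Means of SF and M both above those of JF and PF were found for 1483 unigenes, and in 583 of them this was also the largest gap. The minimum of 5 CPM left 443, and the ratio left 308, of which 108 fell below the limit of 200. The selection ratio of the 198 members ran from 2.45 to 49.9 with a median of 4.06, and 10 members reached a ratio of 10. At the end of the list Cluster-5789.10019, Cluster-5789.9259 and Cluster-5789.1668 had ratios of 2.47, 2.46 and 2.45, and just outside it Cluster-5789.9049, Cluster-5789.1231 and Cluster-5789.2782 had 2.43, 2.43 and 2.42. The limit thus cut through a continuous range of values.

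**Figure D1:**
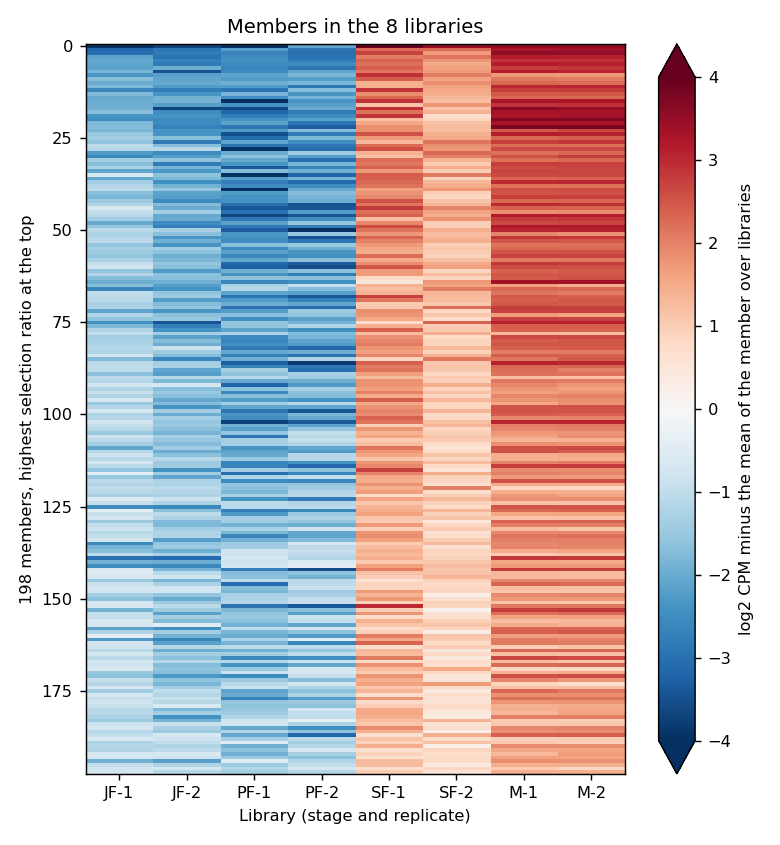
Heat map of the 198 members (rows, highest selection ratio at the top) in the 8 libraries (columns). The colour is log2 CPM minus the mean of the member over the libraries. SF-1 and SF-2 are paler than M-1 and M-2 in most rows, and SF-2 is paler than SF-1, while the low stages are blue throughout by selection.

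Over the members, the mean level had a median of 81.4 CPM in M, 46.8 in SF, 6.91 in JF and 4.87 in PF. M was 17.8 times PF and 12.6 times JF in the median member, and SF was 10.7 times PF and 7.37 times JF. These folds were fixed in direction by the selection and were not tested. Together the members took 5.33% and 5.34% of all counts in M, 3.60% and 2.23% in SF, 0.428% and 0.318% in JF, and 0.283% and 0.304% in PF. Without the 10 most abundant members the shares were 3.49% in both M libraries, 2.43% and 1.63% in SF, and 0.205% to 0.319% in JF and PF. A step had to remain, because each member was selected for it. These 10 held 34.4% and 34.6% of the members' counts in M, and 32.5% and 27.0% in SF. In pools of whole animals, a tissue that makes up more of the body and more RNA per cell cannot be told apart.

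**Figure D2:**
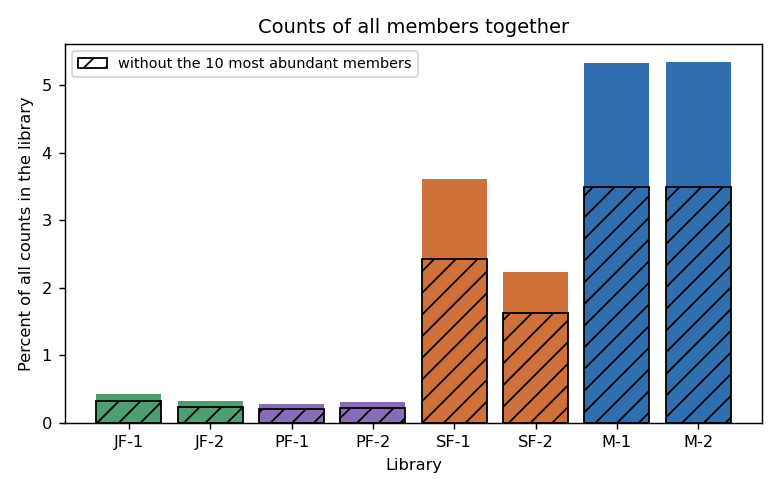
Percent of all counts in each library that fell on the 198 members (bars), and the same without the 10 most abundant members (hatched). The M libraries are at 5.33% and 5.34%, SF-1 at 3.60%, SF-2 at 2.23% and every JF and PF library under 0.5% (0.283% to 0.428%).

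Each member had at least 63.4 counts in every SF and M library, so counting error is small there. In the low stages 9 members had under 10 counts in some library, and the lowest count was 3. The selection ratio divides by the highest JF or PF library, not by the lowest. In the 8 members with the highest ratios, the highest JF or PF count was between 17 and 187.34. Some of these ratios thus rest on small counts. Counting error is only a part of the error, since the spread between pools is larger.

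The selection was also made on libraries of a single number and then read in the others. The numbers 1 and 2 come from the sample titles, which do not say whether libraries of the same number belong together. From JF-1, PF-1, SF-1 and M-1 the same rule chose 198 unigenes, and in the libraries numbered 2 the ratio reached 1.5 in 185 of them (93.4%) and exceeded 1 in 196. Among all 7328 unigenes with at least 5 CPM in SF-2 and M-2, a ratio of 1.5 was reached by 506 (6.91%). In the other direction 199 unigenes were chosen and 186 (93.5%) reached 1.5 in the libraries numbered 1, against 8.07% of all. The median ratio of the unigenes chosen in number 1 was 7.13 there and 4.82 in number 2. Of those chosen in number 2 it was 5.72 there and 6.29 in number 1. All 8 libraries entered the selection of the 198 members, and the libraries of a stage may share a culture, so this split describes these libraries and is not independent support.

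Cluster-5789.11654 had the highest ratio, 49.9. It was at 368 and 171 CPM in SF, 175 and 173 in M, 0.535 and 1.14 in JF, and 0.601 and 3.44 in PF. SF-2 was at the level of the males and SF-1 at 2.15 times SF-2, while the JF and PF values came from 10 to 59 counts. Cluster-5789.11774 was at 189 and 96.1 CPM in SF, 345 and 336 in M, 3.53 and 4.16 in JF, and 4.69 and 3.73 in PF. Both male libraries lay above both SF libraries. Cluster-5789.11046 showed the same order, with 195 and 121 CPM in SF, 372 and 358 in M, and 6.11 to 9.94 in the JF and PF libraries. These 3 unigenes are on the study's candidate list as uncharacterized proteins.

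The other members among the 8 highest ratios were Cluster-5789.12772, Cluster-5789.12566, Cluster-5789.11912, Cluster-5789.11705 and Cluster-5789.812, with ratios from 11.6 to 22.1. Cluster-5789.12772 was at 37.5 and 37.2 CPM in SF, 76.0 and 78.8 in M and between 0.856 and 1.68 in JF and PF. Cluster-5789.12566 was at 39.0 and 42.4 CPM in SF, 83.2 and 81.4 in M and between 1.22 and 2.14 in JF and PF. In both of these the SF libraries differed little, unlike in most members. Cluster-5789.11912 was at 69.3 and 45.6 CPM in SF and 99.7 and 99.0 in M. Cluster-5789.11705 was at 21.0 and 12.4 CPM in SF and 27.0 and 29.2 in M. Cluster-5789.812 was at 14.3 and 10.6 CPM in SF and 29.2 and 27.1 in M. In 7 of these 8 members all male libraries exceeded all SF libraries, the exception being Cluster-5789.11654.

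**Figure D3:**
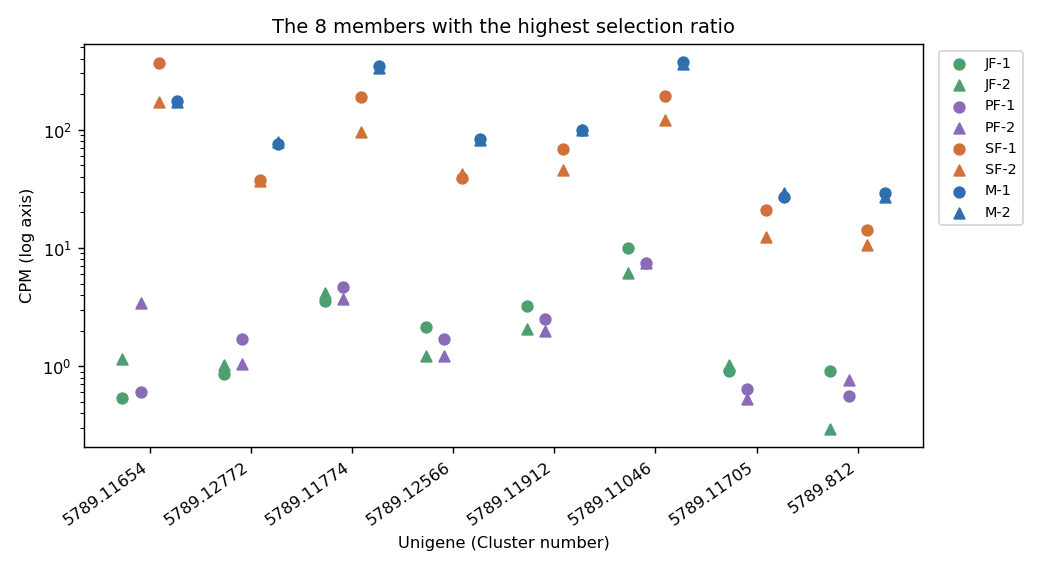
CPM (log axis) of the 8 members with the highest selection ratio, with circles for replicate 1 and triangles for replicate 2 of each stage. JF and PF lie at or under 9.94 CPM and SF and M at or above 10.6 CPM, a separation set by the selection, while the order of SF and M was free and differs in Cluster-5789.11654.

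CPM are not corrected for transcript length, which the files do not give, so the order of members by CPM is an order of counts only. The most counts fell on Cluster-5789.2237, with 2956 and 2998 CPM in M, 2234 and 484 in SF, 57.8 and 58.6 in JF, and 45.3 and 52.3 in PF. Cluster-5789.7730 was at 2523 and 2507 CPM in M, 1829 and 829 in SF, 185 and 113 in JF, and 82.2 and 91.3 in PF. Cluster-5789.8342 was at 2258 and 2291 CPM in M, 1248 and 579 in SF, 157 and 125 in JF, and 53.9 and 38.0 in PF. Of these 3, SF-1 was closer to the males than SF-2 in each, most of all in Cluster-5789.2237. Cluster-5789.7372 was at 1968 and 2002 CPM in M, 1310.4 and 987 in SF, 107 and 70.5 in JF, and 99.9 and 72.2 in PF.

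The only sequences the sources used here hold for members are the study's qPCR primers of the candidate list. They are shown for the member with the highest ratio, for a member called higher in M than in SF, and for 2 members called in opposite directions between JF and PF, described below. They may help to find these cluster numbers in another assembly, which was not tried here. They are written 5′ to 3′ in lower case, with no base set off.
Cluster-5789.11654 forward: agcgaccaatacgaatct
Cluster-5789.11654 reverse: cagaccgttgtaaccaatc
Cluster-5789.11774 forward: tatgcgttctgtggaagt
Cluster-5789.11774 reverse: ctggtattgctggagtagt
Cluster-5789.1931 forward: aggatacctcatcgttcaat
Cluster-5789.1931 reverse: atcaatatagaccgcaattcg
Cluster-5789.11669 forward: caatcaacattcactctgcta
Cluster-5789.11669 reverse: gctcctcttcaacttcaatc

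The comparison M vs SF asks how the group differs between the sexes of the sexual generation. Its direction was not set by the selection, but its size was bounded, because the gap between SF and M had to stay under the gap to JF and PF. In most members the males were higher. The mean of M exceeded that of SF in 184 members and the reverse held in 14. Both male libraries lay above both SF libraries in 149 members (75.3%), against 35.2% of all 10822 tested unigenes, and below them in 5 members (2.53%), against 43.2% of all. The ratio of the means M over SF ran from 0.527 to 6.35, with a median of 1.69.

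edgeR's quasi-likelihood test was fitted on all 8 libraries, and p-values were adjusted by Benjamini and Hochberg over all tested unigenes. A unigene was called where the adjusted p was under 0.05 and the fitted change was over 1 on the log2 scale in either direction. All 198 members passed the filter on low counts. In M vs SF, 50 members (25.3%) were called higher in M, where 10.2% of all tested unigenes were. The edgeR test called 0 members lower in M, against 11.9% of all, and DESeq2 called 0 as well. At an unadjusted p under 0.05, edgeR gave 92 members higher in M, against 22.7% of all tested unigenes, and 3 lower, against 28.8%. The median log2 fold change of the members was 0.79, and that of all tested unigenes -0.06. With DESeq2 size factors these medians were 0.91 and 0.06.

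Single libraries moved this number of calls. Leaving out SF-1 gave 101, 33 without SF-2, 20 without M-1 and 22 without M-2. Each of these fits leaves the stage concerned with a single library, which is assumed to vary like the other stages. The main fit also assumes a common spread for all stages, though the male libraries differed by little more than sampling. If these came from the same pool, the standard errors and p-values of the main fit may be too small. The median log2 fold change of the members was 1.16 without SF-1 and 0.48 without SF-2. It was 0.81 without M-1 and 0.79 without M-2. A total of 20 members were called higher in M with each of the 8 libraries left out in turn. With no fold change threshold, 68 members passed as higher and 2 as lower in M. The share of all tested unigenes was not counted without this threshold or with a library left out. The counts in this paragraph thus describe the members only, and do not tell whether the whole set of unigenes moved alike.

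The largest change was in Cluster-5789.10429, which was at 559 and 563 CPM in M, 98.6 and 78.1 in SF, 7.60 and 7.33 in JF, and 8.31 and 9.74 in PF. Its males were far above the SF libraries. These in turn were far above the low stages, a difference whose direction was set by the selection. Between M and SF the log2 fold change came to 2.70 (standard error 0.17, edgeR adjusted p = 0.000164). Cluster-5789.1201 was at 256 and 253 CPM in M, 68.2 and 44.8 in SF, and 1.86 to 5.67 in JF and PF, a log2 fold change of 2.20 ± 0.37 (standard error) with an edgeR adjusted p of 0.00535. Cluster-5789.12207 was at 102 and 106 CPM in M, 29.7 and 16.6 in SF, and 4.01 to 5.60 in JF and PF, also a log2 fold change of 2.20 ± 0.33 (standard error) with an edgeR adjusted p of 0.00299. Cluster-5789.12656 was at 73.0 and 72.6 CPM in M, 9.90 and 23.7 in SF, and 1.16 to 1.88 in JF and PF, a log2 fold change of 2.18 ± 0.34 (standard error) with an edgeR adjusted p of 0.00366. These 4 calls were kept with each library left out.

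Among the candidates, Cluster-5789.11774 and Cluster-5789.11046 were called higher in M than in SF, by 1.28 and 1.24 on the log2 scale (edgeR adjusted p = 0.0303 and 0.0191). Cluster-5789.12772, Cluster-5789.12566 and Cluster-5789.812 of the highest ratios were also called, at 1.10, 1.06 and 1.21 (edgeR adjusted p = 0.00829, 0.014 and 0.0337), and these calls too were lost without either male library, that of Cluster-5789.812 also without SF-2. The calls of Cluster-5789.11774 and Cluster-5789.11046 were lost without SF-2 (log2 fold changes of 0.88 and 0.94) or without either male library, and the first also without either JF library. Cluster-5789.2216 was at 570.3 and 577 CPM in M, 569 and 292 in SF, 28.7 and 31.1 in JF, and 21.8 and 31.8 in PF, so SF-1 reached the males and SF-2 did not. It was not called in M vs SF (log2 fold change 0.44, edgeR adjusted p = 0.338), but was without SF-1 (1.08). Cluster-5789.1931 was not called (0.46, edgeR adjusted p = 0.384), nor was Cluster-5789.11669 (0.64, edgeR adjusted p = 0.145).

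The members with the higher level in SF were few, and the following were named after their values had been seen. Cluster-5789.1179 was at 480 and 709 CPM in SF, 315 and 311 in M, 86.1 and 82.1 in JF, and 54.2 and 66.0 in PF. Between M and SF the log2 fold change came to -0.87 (standard error 0.16, edgeR adjusted p = 0.00669), under the fold change threshold. Cluster-5789.11872 was at 26.7 and 28.9 CPM in SF and 16.0 and 14.3 in M, a log2 fold change of -0.83 ± 0.21 (standard error) with an edgeR adjusted p of 0.0219. Cluster-5789.8812 was at 946 and 515 CPM in SF and 412 and 419 in M, a log2 fold change of -0.79 ± 0.30 (standard error) with an edgeR adjusted p of 0.078. For the member with the highest ratio, Cluster-5789.11654, the log2 fold change of -0.61 was smaller than its standard error of 0.68 (edgeR adjusted p = 0.511).

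The comparison JF vs PF asks whether the low stages are equally low. The selection bounded the size of this difference too, but not its direction. The members were more often higher in JF than in PF. The mean of JF exceeded that of PF in 141 members and the reverse held in 57. Both JF libraries lay above both PF libraries in 94 members (47.5%), against 40.9% of all tested unigenes, and below them in 31 (15.7%), against 38.4%. The edgeR test called 38 members (19.2%) higher in JF, close to the 21.6% of all tested unigenes, and 9 members (4.55%) lower in JF, where 17.2% of all were. The bound set by the selection acts on both counts. The median log2 fold change was 0.39 for the members and 0.08 for all tested unigenes. Without JF-1 it was 0.19 and without JF-2 0.61.

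Higher in JF, Cluster-5789.7734 was at 827 and 834 CPM in M, 696 and 557 in SF, 85.0 and 42.3 in JF, and 6.05 and 14.6 in PF, a log2 fold change of 2.68 ± 0.48 (standard error) with an edgeR adjusted p of 0.00394. The candidate Cluster-5789.1931, a hypothetical protein, was at 883 and 886 CPM in M, 828 and 480 in SF, 64.6 and 65.7 in JF, and 7.41 and 16.6 in PF, a log2 fold change of 2.50 ± 0.42 (standard error) with an edgeR adjusted p of 0.00293. Cluster-5789.10012 was at 1521 and 1519 CPM in M, 807 and 422 in SF, 107 and 63.3 in JF, and 13.9 and 18.1 in PF, a log2 fold change of 2.45 (edgeR adjusted p = 0.00253). In these members PF was the lowest stage by far and JF lay between. Cluster-5789.11841 was at 117 and 121 CPM in M, 64.9 and 38.9 in SF, 6.74 and 5.88 in JF, and 1.44 and 0.873 in PF, a log2 fold change of 2.43 (edgeR adjusted p = 0.00183).

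Lower in JF, Cluster-5789.11980 was at 472 and 465 CPM in M, 180.3 and 128 in SF, 8.35 and 7.78 in JF, and 39.8 and 30.2 in PF, a log2 fold change of -2.10 ± 0.26 (standard error) with an edgeR adjusted p of 0.000649. Cluster-5789.2037 was at 42.2 and 43.4 CPM in M, 41.1 and 30.4 in SF, 2.30 and 2.17 in JF, and 7.73 and 9.55 in PF, a log2 fold change of -1.91 (edgeR adjusted p = 0.000442). In these members the level was lowest in the newborns. Cluster-5789.1104 was at 8.29 and 6.37 CPM in JF and 16.5 and 29.1 in PF (-1.59, edgeR adjusted p = 0.00412), and Cluster-5789.825 at 3.16 and 2.95 in JF and 8.41 and 8.56 in PF (-1.44, edgeR adjusted p = 0.00221). The candidate Cluster-5789.11669 was at 822 and 823 CPM in M, 397 and 701 in SF, 27.1 and 32.1 in JF, and 77.1 and 50.1 in PF. Its log2 fold change of -1.08 (edgeR adjusted p = 0.0251) was no longer called without PF-1 or without either JF library. Cluster-5789.11980 and Cluster-5789.825 were also called higher in M than in SF, by 1.64 and 1.44 on the log2 scale (edgeR adjusted p = 0.00305 and 0.00317). From lowest to highest, the order of their stage means was JF, PF, SF and M. The selection set the place of JF and PF below SF and M in this order.

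Both comparisons together divide the group. Of the 198 members 114 (57.6%) were called in neither comparison, against 50.9% of all tested unigenes. Members called higher in M than in SF and not called in JF vs PF numbered 37 (18.7%), against 4.32% of all. Those called in JF vs PF alone were 28 (14.1%) that were higher in JF, against 15.9% of all, and 6 (3.03%) that were lower, against 11.1%. A total of 10 members (5.05%) were higher in M than in SF and higher in JF than in PF, against 5.21% of all, and 3 (1.52%) were higher in M and lower in JF, against 0.638%. The selection bounds both differences in the members and not in the other unigenes, so these shares are a description.

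**Figure D4:**
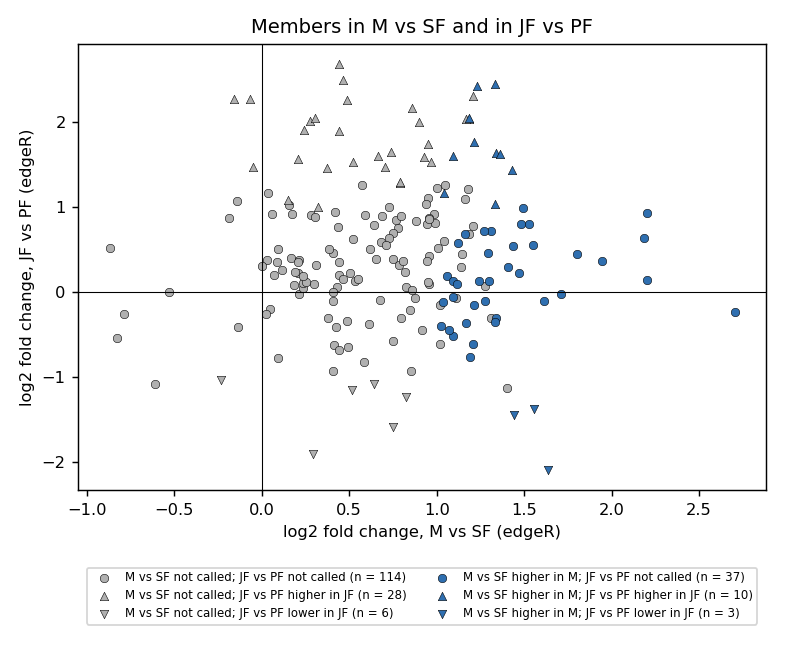
log2 fold change in M vs SF (x axis) against that in JF vs PF (y axis) from edgeR, 1 point per member. Blue points were called higher in M (50 members), upward triangles higher in JF (38) and downward triangles lower in JF (9). Most points lie right of 0 (186 of 198) and above 0 (143 of 198). Over all tested unigenes, which are not shown, the medians were -0.06 in M vs SF and 0.08 in JF vs PF.

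The SF libraries differed in this group more than elsewhere. SF-1 was higher than SF-2 in 156 of the 198 members (78.8%), with a median ratio of 1.53. Among the other 7176 unigenes with means of at least 5 CPM in SF and M, SF-1 was the higher in 34.8%, with a median ratio of 0.918. A difference of at least 2-fold in favour of SF-1 was found in 44 members (22.2%), against 4.49% of the other unigenes, and in favour of SF-2 in 4 members (2.02%), against 2.93%. The median log2 ratio was 0.62 in the members and -0.12 in the others. On the TMM scale the medians were 0.73 and -0.01, with SF-1 higher in 168 members. The others include the 108 unigenes that met the rule below the limit, which were not compared as a set. SF-1 was also the higher in the 3 unigenes just outside the list. These were at 1212 and 1025 CPM (Cluster-5789.9049), 10.5 and 6.78 (Cluster-5789.1231), and 49.7 and 27.0 (Cluster-5789.2782). The difference may thus not be particular to the members. With 1 pair of libraries it cannot be tested, and nothing here tells which of both pools represents sexual females better.

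SF-1 thus lay closer to the males. In the median member it was at 0.73 times the mean of M and SF-2 at 0.478 times. SF-1 exceeded both male libraries in 34 members and SF-2 in 8. These positions were not counted over all tested unigenes, so they describe the members only. Members called higher in M than in SF and those not called did not differ much in the order of the SF libraries. SF-1 was the higher in 74.0% of the 50 and 80.4% of the 148. The known genes left out of the group had the same order, with SF-1 at 2.58 times SF-2 for chitinase 8 (675 and 262 CPM) and at 2.09 times for trypsin alpha-like (519 and 248 CPM). The part of such pool differences in the comparisons with SF was not tested beyond leaving out each library.

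The largest excess of SF-1 was in Cluster-5789.733, at 110.02 and 23.5 CPM in SF, 61.3 and 59.9 in M, 5.62 and 3.09 in JF, and 6.37 and 5.24 in PF. Its SF libraries lay on either side of the males, 4.68-fold apart. Cluster-5789.11698 was at 481 and 113 CPM in SF and 263 and 266 in M, again on either side. In Cluster-5789.2237, described above, the ratio was 4.62, and in Cluster-5789.1004 (10.9 and 3.17 CPM in SF, 17.6 and 16.2 in M) it was 3.43. Without SF-1 the log2 fold changes of these 4 in M vs SF were 1.47, 1.33, 2.72 and 2.51. With all libraries they were -0.13, -0.16, 1.14 and 1.28, and none of the 4 was called. The 4 were picked by their excess in SF-1, so leaving it out had to raise these values. The opposite order was found in Cluster-5789.13046 (11.4 and 35.5 CPM in SF, 58.5 and 59.1 in M), Cluster-5789.12656, Cluster-5789.12370 (6.39 and 14.8 CPM in SF, 15.2 and 18.8 in M) and Cluster-5789.1040 (52.5 and 114 CPM in SF, 171 and 169 in M). In these SF-2 was the closer to the males.

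The JF libraries showed a like difference at a low level. JF-1 was higher than JF-2 in 166 members (83.8%), against 47.9% of the other unigenes, and the median ratio was 1.33 against 0.993. In PF, PF-1 was higher in 37.9% of the members and 30.0% of the others, with median ratios of 0.875 and 0.892. In M the median ratio was 0.992 and no member differed by 1.5-fold. The log2 ratios JF-1 over JF-2 and SF-1 over SF-2 correlated weakly across the 198 members (Pearson's r = 0.17, Spearman's rho = 0.19), which share their libraries and are not replicates. Among the 7176 other unigenes Pearson's r was 0.18 and Spearman's rho -0.03. Replicate 1 was the higher in both stages in 135 of the 198 members and in 1125 of the 7176 others. The size of the excess in SF-1 was thus at most weakly related to that in JF-1, in the members as in the others.

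**Figure D5:**
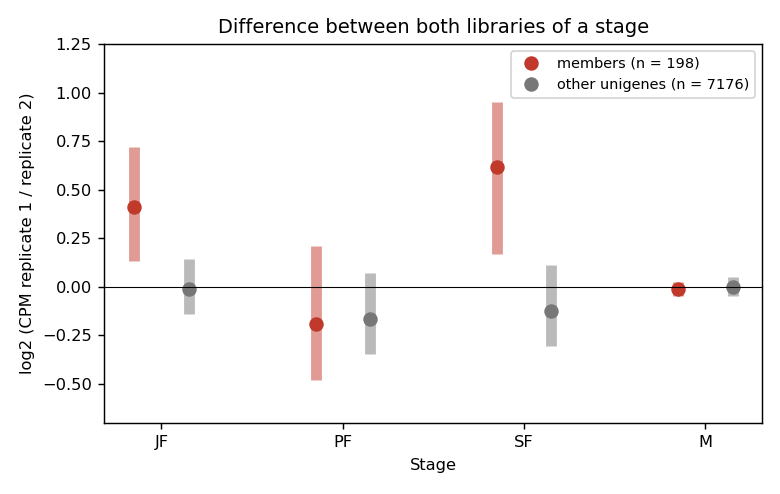
Median (point) and middle range from the lower to the upper quartile (bar) of log2 CPM replicate 1 over replicate 2 within each stage, for the 198 members and the 7176 other unigenes with at least 5 CPM in SF and M. The members' medians are 0.62 in SF, 0.41 in JF, -0.19 in PF and -0.01 in M, and those of the others -0.12, -0.01 and -0.17 in SF, JF and PF.

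Nearly all members, 193 (97.5%), carried the number of the main assembly cluster, as did 94.1% of all listed unigenes. When the IDs of this cluster were put in numerical order, 23 members (11.9%) had another member as direct neighbour, against 3.40% of the other unigenes of the cluster. They formed 10 pairs and a run of 3. The pairs had consecutive numbers. The run (Cluster-5789.11730, Cluster-5789.11734 and Cluster-5789.11738) did not, since the numbers between are not among the listed unigenes. No source used here says what close numbers mean. Reads of near-identical transcripts may have been split between such neighbours, so single values of them are uncertain. In the pair Cluster-5789.1229 and Cluster-5789.1230, named after their values had been seen, M was at 1152 and 1139 CPM and at 608 and 598, and SF at 575 and 351 and at 278 and 159. Both were called higher in M (1.34 and 1.49 on the log2 scale, with edgeR adjusted p = 0.00959 and 0.0183). In Cluster-5789.12656 and Cluster-5789.12657 the neighbours differed: the latter was at 36.3 and 37.3 CPM in SF and 51.9 and 50.1 in M and was called lower in JF (-1.15), where the former was not called (0.63).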

How the data were processed

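RNA of 8 libraries (2 each of JF, PF, SF and M) was analysed, grouped by the sample titles. Per the study's methods, mRNA was captured with poly-T beads, read from both ends on an Illumina instrument, cleaned and assembled with Trinity. The authors deposited 1 table per library with an estimated count of every listed unigene, not scaled to depth. The counting program was not given in the sources used here. No value was 0, so unigenes without reads in some library were not analysed here. CPM used the total of each file. The known genes were dropped after the limit of 200; dropping them first would add the next 2 unigenes. Counts were rounded for edgeR 4.0.16 (limma 3.58.1, R 4.3.3), with TMM scaling, the filter by stage (10822 of 11114 unigenes), a robust quasi-likelihood fit with stage as the only term (4 residual degrees of freedom) and adjustment over all tested unigenes. The standard error was the log2 fold change divided by the square root of F. DESeq2 1.42.0 and the other alternatives are given in the closing section. The members, lists and tests were chosen with earlier results of these data known. Named were members of the candidate list, the 8 highest and 3 lowest ratios, the 4 largest called changes in each direction, the 4 with most counts, and the 4 largest and 4 smallest ratios of SF-1 to SF-2. M vs JF, M vs PF, SF vs JF and SF vs PF were used by the selection and were not tested.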

Additional observations from a re-analysis of the deposited data

How the results depend on the processing

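Of the members, 50 were called higher in M than in SF. The share of all tested unigenes called was counted for the main fit alone. The counts of calls under the alternatives, also those with the replicate number as a block, thus describe the members only. DESeq2 on all 8 libraries called 81 and a test against the fold change threshold (glmTreat) 8, and with each library left out the number was between 20 and 101. For members lower in M than in SF the number was 0, but 2 with the adjusted p alone and 0 to 1 with a library left out. For JF vs PF, glmTreat gave 15 higher and 3 lower members instead of 38 and 9, and the other alternatives stayed within 1.5 times. These were scaling by DESeq2 size factors or by library size alone, testing with no filter or with at least 10 CPM in 2 libraries, edgeR on the 4 compared libraries, the adjusted p alone, and each library left out. Over all tested unigenes DESeq2 size factors moved the median of M vs SF from -0.06 to 0.06. The selection itself gave between 244 and 395 unigenes instead of 308 in the alternatives run, between 267 and 388 of them with a library left out. SF-1 exceeded SF-2 by 2-fold in 44 of the 156 members in which it was higher. The cause was not tested. Named members kept their direction where called.

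The labels do not say whether libraries of the same replicate number belong together. The deviations of replicate 1 from the stage means correlated at -0.03 to 0.12 between stages, with the highest value between JF and SF. With 1 pair of libraries per stage, these values cannot decide the question. With the replicate number as a block, 56 members were higher in M than in SF (48 of them shared with the 50), 0 lower, 39 higher in JF than in PF and 9 lower.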
